A study of Mus musculus with 6 samples.

Results

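Lin28a, Lin28b, Trim71, Dis3l2, Igf2bp1, Igf2bp2 and Igf2bp3 encode RNA-binding proteins and an exoribonuclease of the early embryo. They were taken by gene symbol from a table of 25170 symbols. All 7 were found, and all 7 were among the 11785 genes that passed the filter on low values, a mean of at least 1 FPKM (mapped fragments per unit of transcript length and of library size). RNA-seq was done on mouse embryonic stem cells (ESCs) of the established line E14 and on Hnrnpf knockout cells of that line. Hnrnpf encodes a nuclear RNA-binding protein that takes part in splicing, and the study asked what its loss does to undifferentiated cells and to differentiating ones. Cells were kept in serum medium with leukemia inhibitory factor (LIF, the cytokine that maintains self-renewal) or were grown for 4 days without it. Each medium has 1 wild type library and 2 knockout libraries numbered 1 and 2, which gives 6 libraries in 4 groups.

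LIN28A and LIN28B bind precursors of the let-7 microRNAs. LIN28A recruits terminal uridylyl transferases to them, and the exonuclease DIS3L2 degrades the uridylated precursors. Mature let-7 in turn represses the mRNAs of LIN28A, LIN28B and TRIM71, a TRIM-NHL protein that silences mRNAs in pluripotent cells, and several IGF2BP mRNAs are let-7 targets as well. The IGF2BP proteins bind many mRNAs, among them Igf2, and favour their stability or localization, and LIN28B, IGF2BP1 and IGF2BP3 are called oncofetal because tumours re-express them.

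The labels do not say which stretch of Hnrnpf was deleted, whether the numbered libraries are separate clones or cultures, or whether the numbers stand for the same clones with and without LIF. The p-values therefore reflect library-to-library spread that could be technical. Hnrnpf had 342 FPKM in wild type cells with LIF and 335 FPKM after its removal. Relative to wild type in the same medium, knockout library 1 held 28.9% with LIF and 28.4% after removal. Knockout library 2 held 10.8% and 8.28%, so the remaining level differed between the numbers in both media. Of 10 ESC markers, all were detected in each library, with sums between 3360 and 9780 FPKM, and 8 of them fell on LIF removal (limma, over both genotypes), where 12.7% of all genes did. Dppa5a alone gave 6460 of the 9780 FPKM in wild type cells with LIF. It gave 1540 of the 3360 FPKM in knockout library 2 after removal. Markers of other cell types were low: the sums lay between 3.33 and 8.36 FPKM for 7 fibroblast genes, 4.77 and 13.6 for 8 primitive endoderm genes, 5.58 and 26.7 for 5 mesendoderm genes and 0.635 and 13.9 for 5 trophoblast genes. The trophoblast sum was 0.635 FPKM in wild type cells with LIF, 2.88 and 6.35 in knockout cells with LIF, 5.77 in wild type cells after removal and 7.74 and 13.9 in knockout cells after removal, so it moved with both genotype and medium. The mesendoderm sum moved with medium, from 5.91 FPKM in wild type and 7.46 and 5.58 FPKM in knockout cells with LIF to 17.6, 12.6 and 26.7 FPKM after removal. Its 5 genes did not move together by genotype. T stood at 0.0426 FPKM in wild type and 0.199 and 0.711 FPKM in knockout cells with LIF, and at 1.81, 4.45 and 13.3 FPKM after removal. Eomes after removal was lower in knockout cells, at 13.6 FPKM in wild type and 6.92 and 10.3 FPKM in knockout cells. The neural sum, between 62.5 and 100 FPKM over 4 genes, came mostly from Tubb3, and the 4 genes did not move together. In wild type and knockout libraries 1 and 2, Nes went from 1.57, 3.41 and 4.42 FPKM with LIF to 18.3, 11.2 and 16.0 FPKM after removal. Pax6 went from 5.05, 3.95 and 4.11 FPKM to 4.5, 2.67 and 2.43 FPKM. Tubb3 went from 81.3, 84.5 and 75.9 FPKM to 77.1, 48.4 and 47.5 FPKM, and Sox1 lay between 0.131 and 1.19 FPKM. In bulk RNA, fewer cells of a type and less RNA per cell cannot be told apart.

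The link between these genes and let-7 can be read in sequence. The table has 12 let-7 family genes and lists each of them at 0 in every library, so let-7 itself was not measured here. RefSeq (GRCm38.p6) gives 9 mature 5p members of the family, which share a single seed. Of these, 3 are shown, with the seed (bases 2 to 8) in capitals.
mmu-let-7a-5p: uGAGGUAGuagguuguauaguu
mmu-let-7g-5p: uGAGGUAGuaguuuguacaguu
mmu-miR-98-5p: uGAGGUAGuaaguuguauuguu
LIN28 proteins recognise GGAG in the loop of many let-7 precursors. That motif lies between the arms of 9 of 12 let-7 hairpins and was not found there in Mirlet7c-2, Mirlet7b and Mir98. A hairpin with the motif, in capitals, and one without it are shown.
Mirlet7g: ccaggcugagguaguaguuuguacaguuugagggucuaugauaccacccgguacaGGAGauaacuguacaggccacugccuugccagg
Mirlet7b: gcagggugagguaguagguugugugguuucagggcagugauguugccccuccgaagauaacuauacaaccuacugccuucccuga

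The 3′ untranslated regions (UTRs) of the 7 genes were searched on the transcribed strand for CTACCTC, the complement of the seed, and for the form CTACCTCA (GENCODE vM21, GRCm38). Trim71 held 4 matches, all of the longer form, in a UTR of 5512 bases. Igf2bp1 held 4, of which 3 were of the longer form, in 6337 bases. Lin28b also held 4, with 1 of the longer form, in 4445 bases, and Lin28a held 2, both of the longer form, in 2775 bases. Igf2bp2 (1784 bases) and Igf2bp3 (2119 bases) held 1 each, and none was found in the 347 bases of Dis3l2. Among UTRs within 25% of the same length, 0.256% held as many matches as Igf2bp1, 0.326% as many as Lin28b, 0.721% as many as Trim71 and 2.08% as many as Lin28a. For Igf2bp2 and Igf2bp3 these shares were 11.7% and 13.2%, and over all 11208 UTRs searched 9.58% held a match. A match describes the letters only, and binding was not measured. The match nearest the start of each of the 6 UTRs is shown with its 15 preceding bases and the longer form in capitals.
Lin28a, chr4:134005189-134005211, minus strand: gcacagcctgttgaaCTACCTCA
Lin28b, chr10:45381022-45381044, minus strand: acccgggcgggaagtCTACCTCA
Trim71, chr9:114512472-114512494, minus strand: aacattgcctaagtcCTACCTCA
Igf2bp1, chr11:95961778-95961800, minus strand: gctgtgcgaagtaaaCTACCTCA
Igf2bp2, chr16:22059473-22059495, minus strand: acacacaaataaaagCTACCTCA
Igf2bp3, chr6:49086787-49086809, minus strand: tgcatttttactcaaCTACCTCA

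Among the 7 genes, Lin28a had the highest mean level over the 6 libraries, 185 ± 36.6 FPKM (SD, n = 6), above 96.6% of the genes tested. Igf2bp1 followed with 97.4 ± 21.7 FPKM. Igf2bp3 (31.8 ± 7.17 FPKM), Igf2bp2 (30.5 ± 12.8) and Trim71 (24.2 ± 1.03) came next, and the ranges of these 3 over the libraries overlapped. Lin28b (14.7 ± 5.06 FPKM) and Dis3l2 (9.79 ± 2.61) had the lowest means, with overlapping ranges. The lowest Lin28a library lay above the highest Igf2bp1 library, and the lowest Trim71 library above the highest Lin28b library. These SDs include the effects of genotype and medium. Trim71 was the steadiest of the 7, with a highest value 1.13 times its lowest, and Igf2bp2 the most variable, with a ratio of 3.29.

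**Figure D1:**
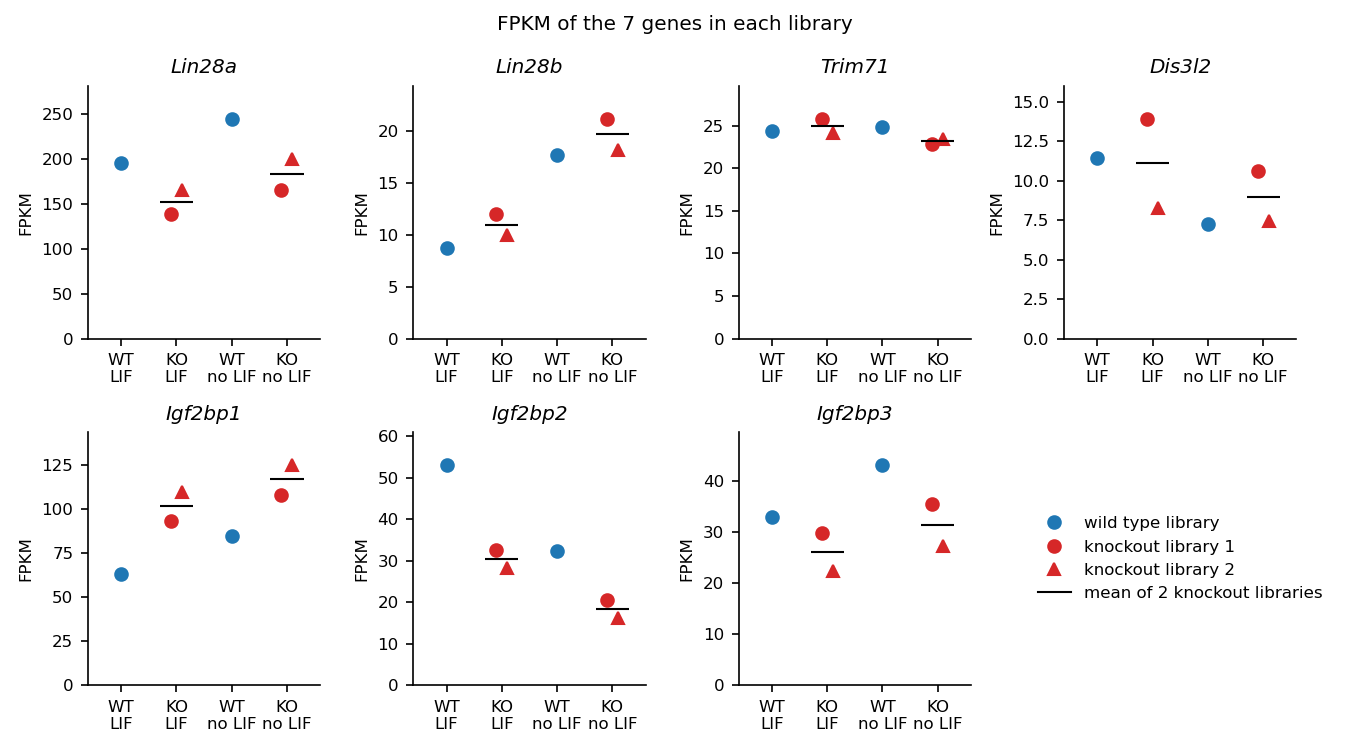
FPKM (y axis, from 0, a separate scale for each gene) of the 7 genes in wild type (WT, blue) and Hnrnpf knockout (KO, red) libraries with LIF and 4 days after its removal, 1 point per library, with circles and triangles for knockout libraries 1 and 2 and a line at their mean. All 4 knockout points of Igf2bp1 lie above both wild type points, and all 3 points of Lin28b after LIF removal lie above the 3 with LIF.

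Knockout and wild type cells were compared over both media with a linear model (limma) that had genotype and medium as added terms, on log2(FPKM + 1) values. A gene was called at an adjusted p under 0.05. Of the 7 genes, Igf2bp1 was higher and Igf2bp2 lower in knockout cells, and the other 5 did not pass. Over all genes tested, 10.5% were called, 5.79% higher and 4.67% lower. If the numbers stand for clones shared by the media, the 4 knockout libraries are 2 clones sampled in each medium, and the p-values treat them as more independent than they are.

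Igf2bp1 (chromosome 11, 95957163 to 96005940) encodes the member of its family best known for stabilizing mRNAs such as Myc. With LIF its level was 63.3 FPKM in the wild type library and 93.3 and 110 FPKM in knockout libraries 1 and 2 (102 ± 11.8, SD, n = 2). After LIF removal the levels were 85.0 FPKM in wild type and 108 and 125 FPKM in knockout cells (117 ± 11.3, SD, n = 2). All 4 knockout libraries lay above both wild type libraries, and Igf2bp1 was the only one of the 7 genes whose genotypes did not overlap. Of all genes tested, 24.9% separated the genotypes in this way, so 1 of 7 does not stand apart. Over both media it was higher by 0.56 (log2 of FPKM + 1, SE 0.12, limma adjusted p = 0.0272). The call was lost without knockout library 2 with LIF (adjusted p = 0.065) or without knockout library 2 after removal (0.0576), and without either wild type library (0.286 and 0.143), which leaves a single medium.

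The knockout libraries also had higher levels across chromosome 11. Against the wild type library of the same medium, the median log2 difference of the 997 other tested genes of the chromosome was 0.46 (library 1) and 0.47 (library 2) with LIF, and 0.43 and 0.48 after removal. For Igf2bp1 the 4 differences were 0.55, 0.79, 0.35 and 0.55. Relative to the chromosome median, Igf2bp1 thus stood between -0.08 and 0.32, and relative to the 120 genes within 5 Mb between -0.06 and 0.28. The shift of Igf2bp1 was close to that of its chromosome in 3 libraries and exceeded it most in knockout library 2 with LIF, where 79.7% of the chromosome's genes had a smaller difference.

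Igf2bp2 (chromosome 16, 22059009 to 22163299) encodes the family member also studied in metabolism and in adult tissues. With LIF it stood at 53.0 FPKM in wild type and at 32.6 and 28.2 FPKM in knockout libraries 1 and 2 (30.4 ± 3.14, SD, n = 2). After removal it stood at 32.4 FPKM in wild type and at 20.5 and 16.1 FPKM in knockout cells (18.3 ± 3.12, SD, n = 2). Knockout cells lay below wild type cells in each medium, and the wild type library after removal lay among the knockout libraries with LIF. Over both media the knockout difference was -0.79 (log2, SE 0.13, limma adjusted p = 0.0147). Without either wild type library, which leaves 1 medium, the adjusted p was 0.162 and 0.144. Genes of chromosome 16 did not share this shift: the medians of its 361 other tested genes lay between -0.08 and -0.01 in the 4 knockout libraries, and Igf2bp2 stood between -0.95 and -0.60 relative to them.

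Igf2bp3 (chromosome 6, 49085223 to 49214957), a largely embryonic member of the family, stood at 33.0 FPKM in wild type and 29.9 and 22.3 FPKM in knockout cells with LIF (26.1 ± 5.34, SD, n = 2). After removal the levels were 43.1 FPKM in wild type and 35.5 and 27.3 FPKM in knockout cells (31.4 ± 5.79, SD, n = 2). In each medium both knockout libraries lay below wild type, with library 2 the lower. The difference over both media, -0.40 (log2, SE 0.16), did not pass (limma adjusted p = 0.147). The medians of the 531 other tested genes of chromosome 6 lay between 0.1 and 0.17 in the knockout libraries. Igf2bp3 stood between -0.81 and -0.24 relative to them. Its genomic neighbours within 5 Mb, 36 genes, had medians between -0.07 and 0.01 in the same libraries. Malsu1, at up to 59.7 FPKM, overlaps Igf2bp3 on the opposite strand, and reads of both genes cannot be told apart if counting did not use strand.

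Because FPKM are scaled to length, the 3 family members can be set against each other. Their sum was 149, 156 and 160 FPKM in the wild type library and knockout libraries 1 and 2 with LIF, and 161, 164 and 168 FPKM after removal. The FPKM totals of these libraries were 556318, 503475 and 504906 with LIF, and 486898, 456155 and 457798 after removal. The family sum was therefore a smaller share of the total in wild type cells with LIF than in the other libraries. The makeup of the family sum differed as well. Igf2bp1 formed 42.4% of it in wild type cells with LIF, 59.9% and 68.5% in knockout cells with LIF, 52.9% in wild type cells after removal and 66.0% and 74.2% in knockout cells after removal. Igf2bp2 formed 35.5%, 20.9%, 17.6%, 20.2%, 12.5% and 9.6% in the same order. The level of Igf2bp1 was thus 1.19 times that of Igf2bp2 in wild type cells with LIF and 7.73 times in knockout library 2 after removal. The other libraries lay between these, at ratios of 2.86 and 3.9 in knockout cells with LIF, 2.62 in wild type cells after removal and 5.29 in knockout library 1 after removal. The chromosome 11 medians of 0.43 to 0.48 given above for knockout libraries were not taken out of these shares or ratios. On the log2 scale, the ratio was 1.39 higher in knockout than in wild type cells, averaged over media (2.21 against 0.82). An exact two-sided permutation within media gave p = 0.111, the smallest the design allows. It was 1.03 higher after removal than with LIF, averaged over genotypes (exact p = 0.167, again the smallest allowed). With 4 such ratio tests made in all, each adjusted p was 0.222. None of them could fall under 0.05 whatever the values, so they decide nothing. The Igf2bp ratio also sets against each other the 2 genes already called in opposite directions for knockout.

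**Figure D2:**
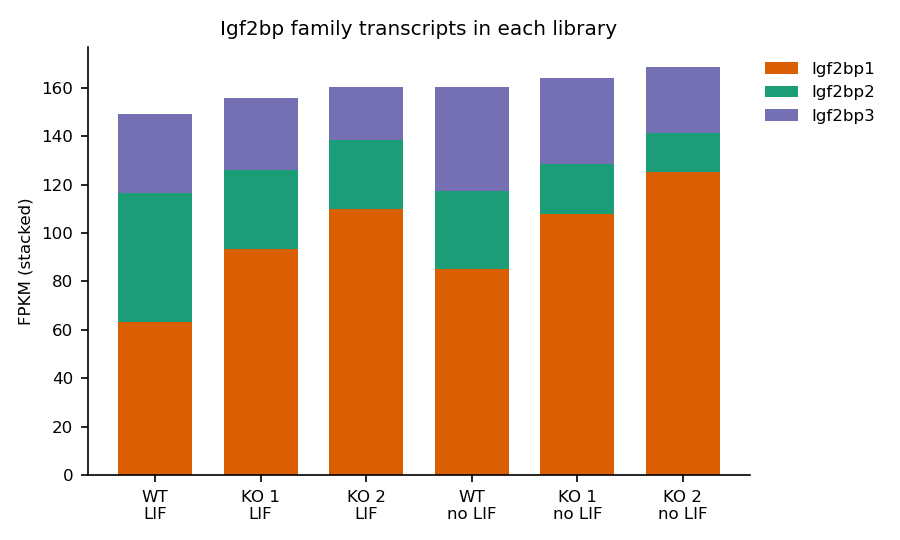
Stacked FPKM (y axis, from 0) of Igf2bp1, Igf2bp2 and Igf2bp3 in each of the 6 libraries, 1 bar per library. Values are not rescaled to an equal library total. The height of the bars lies between 149 and 168 FPKM, while the Igf2bp2 segment goes from 35.5% of the bar in wild type cells with LIF to 9.6% in knockout library 2 after removal.

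Lin28a (chromosome 4, 134003330 to 134018841), the LIN28 paralog of pluripotent cells, stood at 195 FPKM in wild type and at 138 and 165 FPKM in knockout libraries 1 and 2 with LIF (152 ± 19.3, SD, n = 2). After removal it stood at 244 FPKM in wild type and at 165 and 200 FPKM in knockout cells (183 ± 24.6, SD, n = 2). Knockout levels were between 67.9% and 84.9% of the wild type level of the same medium, and library 1 was the lower in both media. The difference over both media was -0.39 (log2, SE 0.12), which did not pass after adjustment (limma adjusted p = 0.0782, unadjusted p = 0.0118). The medians of its chromosome lay between -0.07 and -0.04.

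Lin28b (chromosome 10, 45376620 to 45486395) stood at 8.75 FPKM in wild type and at 12.0 and 10.0 FPKM in knockout cells with LIF (11.0 ± 1.38, SD, n = 2). After removal it stood at 17.7 FPKM in wild type and at 21.2 and 18.2 FPKM in knockout cells (19.7 ± 2.11, SD, n = 2). Both knockout libraries were above wild type in each medium, by 1.37 and 1.15 times with LIF and by 1.19 and 1.03 times after removal. The difference over both media was 0.22 (log2, SE 0.14, limma adjusted p = 0.351). The level of Lin28a was 22.3 times that of Lin28b in wild type cells with LIF, 11.5 and 16.5 times in knockout cells with LIF, 13.7 times in wild type cells after removal and 7.81 and 11.0 times in knockout cells after removal. The log2 ratio was lower by 0.63 in knockout cells, 3.50 against 4.13 (exact two-sided permutation within media, p = 0.222).

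Trim71 (chromosome 9, 114507133 to 114564369) stood at 24.4 FPKM in wild type and at 25.8 and 24.1 FPKM in knockout cells with LIF, and at 24.8, 22.9 and 23.4 FPKM after removal. The 6 libraries lay within a narrow range, and the knockout difference over both media was -0.03 (log2, 95% interval -0.29 to 0.23, limma adjusted p = 0.884). Dis3l2 (chromosome 1, 86703808 to 87050095) stood at 11.4 FPKM in wild type and at 13.9 and 8.25 FPKM in knockout libraries 1 and 2 with LIF, and at 7.26, 10.6 and 7.42 FPKM after removal. Here the knockout libraries disagreed, since library 2 held 59.5% of the level of library 1 with LIF and 70.2% after removal. The knockout difference was 0.09 (log2, 95% interval -0.43 to 0.61, limma adjusted p = 0.838). For both genes the sign of this difference depended on the setting: it was 0.08 for Trim71 when libraries were rescaled to an equal total, and -0.03 for Dis3l2 without knockout library 1 of either medium.

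**Figure D3:**
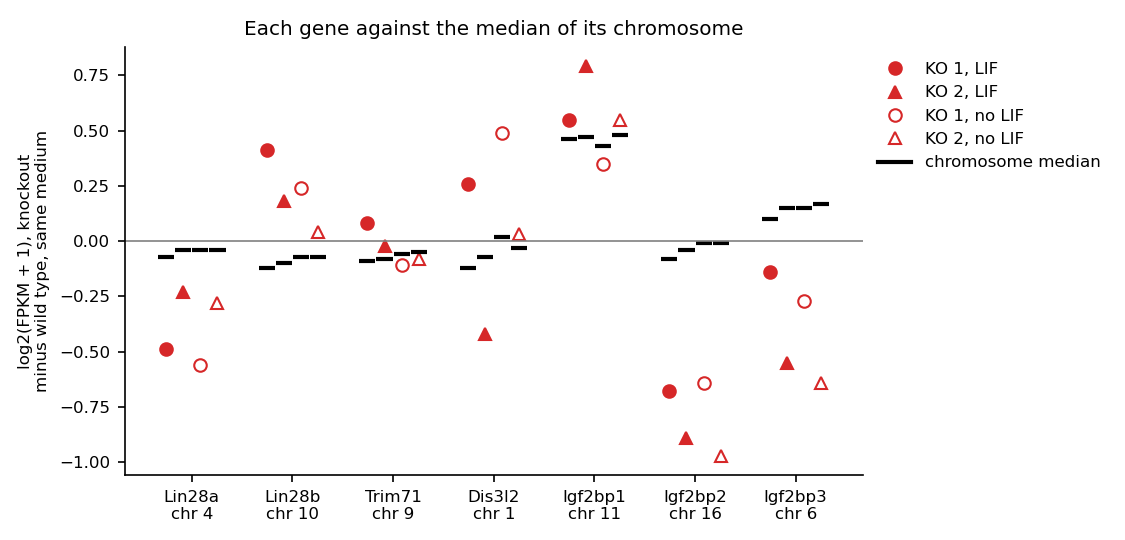
Difference in log2(FPKM + 1) (y axis) of each of the 7 genes between a knockout library and the wild type library of the same medium, with circles and triangles for knockout libraries 1 and 2, filled with LIF and open after removal, and black bars at the median of the other tested genes of the same chromosome. The points of Igf2bp1 lie near the chromosome 11 bars at 0.43 to 0.48 in 3 libraries and at 0.79 in knockout library 2 with LIF, while those of Igf2bp2, at -0.97 to -0.64, lie below the chromosome 16 bars.

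In each medium by itself, with a fit of 4 groups in which the lone wild type library is assumed to vary like the knockout libraries, none of the 7 genes passed. With LIF, 0.0424% of all genes were called. An unadjusted p under 0.05 was reached by 16.7% of all genes and by 2 of the 7, Igf2bp1 (0.67, SE 0.18, limma adjusted p = 0.144) and Igf2bp2 (-0.79, SE 0.21, adjusted p = 0.145). After removal, 0.0594% of all genes were called, 15.5% had an unadjusted p under 0.05, and the same 2 genes were among these, Igf2bp1 at 0.45 (SE 0.18, limma adjusted p = 0.289) and Igf2bp2 at -0.80 (SE 0.21, adjusted p = 0.161). The Igf2bp2 difference was thus of like size in both media.

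LIF removal was compared over both genotypes in the same additive model. Lin28b rose and Igf2bp2 fell, and the other 5 genes did not pass. Of all genes tested, 21.4% were called in this comparison, 8.73% higher and 12.7% lower. When libraries were rescaled to an equal total, the median difference of all genes moved from -0.035 to 0.114 and the calls went from 1029 higher and 1494 lower to 1861 and 852, so differences are to be read against that shift. The same rescaling took the knockout calls from 682 higher and 550 lower to 1024 and 302, and those of LIF removal in knockout cells from 359 and 457 to 549 and 271.

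For Lin28b the 3 libraries after removal, at 17.7 to 21.2 FPKM, all lay above the 3 with LIF, at 8.75 to 12.0 FPKM. The level after removal was 2.03 times that with LIF in wild type cells, and 1.77 and 1.81 times for knockout numbers 1 and 2. The rise over both genotypes was 0.84 (log2, SE 0.13, limma adjusted p = 0.00519). In knockout cells alone, where 6.92% of all genes were called, Lin28b was the only one of the 7 that passed (0.79, SE 0.17, limma adjusted p = 0.0457). That call was lost when any 1 knockout library was left out, at an adjusted p between 0.082 and 0.137. Over the same change of medium, 8 of 10 ESC markers fell, where 12.7% of all genes did. The trophoblast and mesendoderm sums given above were higher in each genotype. Of the neural genes, Nes was higher while Pax6 and Tubb3 were lower in each genotype. The part of a changed cell makeup in the Lin28b level, or in the other differences between media, was not tested.

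Igf2bp2 after removal stood at 0.613 times its level with LIF in wild type cells, and at 0.63 and 0.572 times for knockout numbers 1 and 2. The groups overlapped across genotypes because the wild type library after removal, at 32.4 FPKM, exceeded knockout library 2 with LIF. The fall over both genotypes was -0.70 (log2, SE 0.13, limma adjusted p = 0.00845), with adjusted p values of 0.0583 and 0.0578 when the wild type library with LIF or after removal was left out. In knockout cells alone the difference was -0.71 (SE 0.17, limma adjusted p = 0.0575).

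Another 3 genes were higher after removal in wild type cells and for both knockout numbers without passing the threshold. Lin28a was at 1.25, 1.20 and 1.21 times its level with LIF (0.28 in log2, SE 0.11, limma adjusted p = 0.111). Igf2bp1 was at 1.34, 1.16 and 1.13 times (0.27, SE 0.11, limma adjusted p = 0.123), and Igf2bp3 at 1.30, 1.19 and 1.22 times (0.30, SE 0.15, adjusted p = 0.188). With libraries rescaled to an equal total, Lin28a (0.44, limma adjusted p = 0.0291) and Igf2bp1 (0.43, adjusted p = 0.0339) passed. Dis3l2 was lower in all 3 pairs, at 0.638, 0.762 and 0.899 times (-0.36, SE 0.21, limma adjusted p = 0.257). Trim71 differed by -0.06 (95% interval -0.30 to 0.18, limma adjusted p = 0.707), a sign that turned with quantile normalization (0.01) and with an equal total (0.09).

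**Figure D4:**
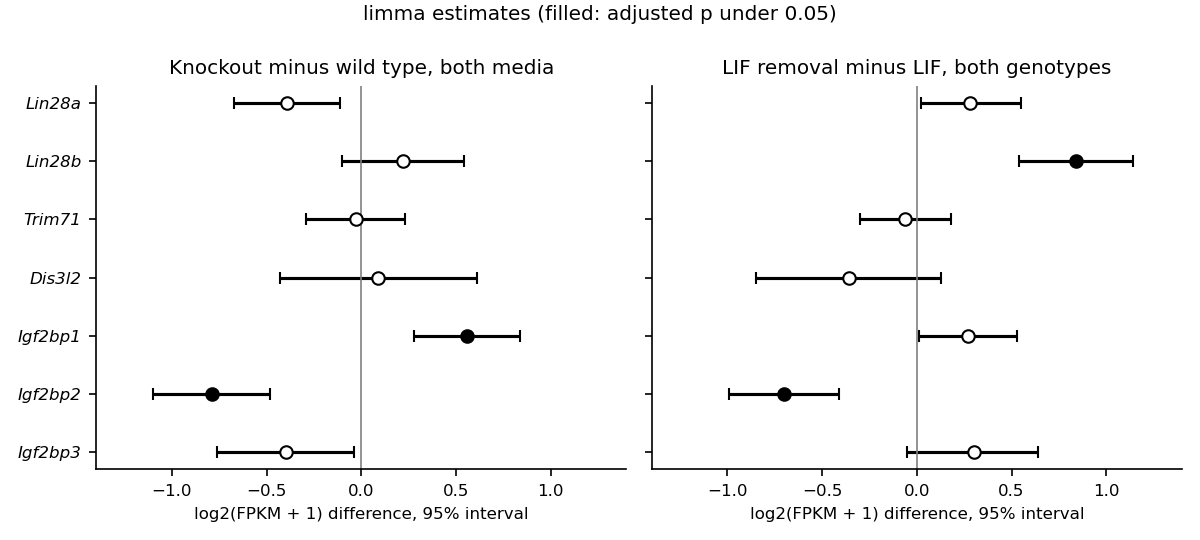
limma estimates with 95% intervals on the log2(FPKM + 1) scale (x axis) for the 7 genes, knockout minus wild type over both media at left and LIF removal minus LIF over both genotypes at right, filled where the adjusted p was under 0.05. Igf2bp1 at 0.56 and Igf2bp2 at -0.79 are filled at left, and Lin28b at 0.84 and Igf2bp2 at -0.70 at right.

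Wild type cells have 1 library in each medium, and their response to LIF removal was described by its size. On the log2(FPKM + 1) scale, without rescaling, none of the 7 genes reached a difference of 1. Of all genes, 3.8% did so upward (448) and 4.56% downward (537), or 797 and 472 genes with an equal total. The differences were 0.94 for Lin28b, 0.42 for Igf2bp1, 0.37 for Igf2bp3, 0.32 for Lin28a, 0.02 for Trim71, -0.58 for Dis3l2 and -0.69 for Igf2bp2. For Lin28b the miss rests on the added 1, since its plain FPKM ratio of 2.03 exceeds that fold. A limma contrast added after the data were seen, in the 4-group fit that takes the spread from the knockout libraries, called 1.02% of all genes and none of the 7. Lin28b came nearest (adjusted p = 0.126), followed by Igf2bp2 (adjusted p = 0.209), in the same limma contrast. Whether the response differed between genotypes was tested as an interaction, in which limma called 0% of all genes and 340 genes (2.89%) had an unadjusted p under 0.05. None of the 7 was among those, and the estimates ran from -0.22 for Igf2bp1 (95% interval -0.82 to 0.37) to 0.34 for Dis3l2 (-0.80 to 1.47). These intervals leave room for sizeable differences in either direction.

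Lists of partner and target genes were described beside the 7 genes, in the order of their roles. Their counts stand beside 10.5% of all genes called for knockout and 21.4% for LIF removal. In the small RNA machinery that includes Drosha, Dicer1, the Argonautes and the uridylyl transferases, 18 genes were tested. Over both media 1 was lower in knockout cells, the RNA helicase Ddx17 (-0.39, limma adjusted p = 0.0435), a call lost when any 1 library was left out. After LIF removal 1 was lower, the pri-miRNA binding protein Hnrnpa1 (-0.51, limma adjusted p = 0.0275), which remained called in 1 of 6 fits with a library left out. The list medians were 0.04 and 0.11, against -0.03 for all genes in each comparison.

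Among 21 known let-7 target mRNAs, 5 were higher and 0 lower by limma after LIF removal, with a list median of 0.28 against -0.03 for all genes. Over all genes 8.73% were higher and 12.7% lower, 21.4% in all, so the number of calls was close to the general share. Irs2, an insulin receptor substrate, went from 6.09 FPKM in wild type and 4.55 and 6.40 FPKM in knockout cells with LIF to 23.0, 13.4 and 23.4 FPKM (1.62 in log2, SE 0.21, limma adjusted p = 0.00286). Hmga2, a chromatin protein and a classical let-7 target, went from 0.893, 2.67 and 2.41 FPKM to 8.19, 6.21 and 6.36 FPKM (1.45, SE 0.25, limma adjusted p = 0.00718). For both genes the libraries of the media did not overlap, and both remained called in all 6 fits with a library left out. Igf1r, the receptor of insulin-like growth factors, rose by 0.77 (limma adjusted p = 0.00907) and the cell cycle kinase Cdk6 by 0.81 (0.0163). With 1 library left out, between 3 and 6 of the 21 were called.

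In knockout cells 1 of the 21 let-7 targets was higher, the cyclin Ccnd1 (0.64, SE 0.14, limma adjusted p = 0.029), and 1 was lower, the kinase Map4k4 (-0.52, SE 0.12, limma adjusted p = 0.0329). These 2 calls compare with 10.5% of all genes called, which is near the same share. Ccnd1 stood at 26.0 and 28.1 FPKM in the wild type libraries and between 37.9 and 49.5 FPKM in the knockout libraries, without overlap. Map4k4 stood at 72.3 and 55.2 FPKM in the wild type libraries, and its knockout values ran from 39.5 to 52.7 FPKM. The list median was -0.22 against -0.03 for all genes, and with 1 library left out between 0 and 3 members were called, with 0 by limma without either wild type library or without knockout library 2 with LIF.

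Of 5 known TRIM71 targets, the immediate early gene Egr1 was higher in knockout cells (0.96, SE 0.20, limma adjusted p = 0.0259), at 10.8 and 17.5 FPKM in wild type libraries and between 20.5 and 33.1 FPKM in knockout libraries. The call was lost in 3 of 6 limma fits with a library left out, without either wild type library or without knockout library 1 after removal, at an adjusted p of up to 0.288, and no target was then called. After LIF removal the splicing regulator Mbnl1 was higher (0.96, SE 0.19, limma adjusted p = 0.0112), at 0.898 to 1.82 FPKM with LIF and 2.13 to 5.22 FPKM after it. The level of Trim71 differed little in either comparison, as given above. Cdkn1a, another target and a cell cycle inhibitor, stood at 38.5 to 42.4 FPKM with LIF and at 41.7, 55.1 and 79.9 FPKM after removal and did not pass (0.48, limma adjusted p = 0.0777).

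Among 10 tested IGF2BP client RNAs, 1 was higher and 2 were lower in knockout cells, and 3 were higher and 1 lower after LIF removal. The list medians were 0.02 and 0.28 against -0.03 for all genes, of which 10.5% and 21.4% were called. Igf2, the growth factor mRNA that gave the family its name, stood at 0.760 FPKM in wild type and 2.22 and 5.55 FPKM in knockout cells with LIF, and at 3.95 FPKM in wild type and 12.2 and 17.2 FPKM in knockout cells after removal. It was higher in knockout cells (1.52, SE 0.29, limma adjusted p = 0.0195) and after removal (1.67, SE 0.27, adjusted p = 0.00574). Gli1, a transcription factor of Hedgehog signalling, went the other way, from 38.8 FPKM in wild type and 13.4 and 18.6 FPKM in knockout cells with LIF to 12.2, 3.53 and 5.38 FPKM after removal. Its differences were -1.27 for knockout (SE 0.19, limma adjusted p = 0.0111) and -1.63 for removal (SE 0.18, adjusted p = 0.00156). Mapk4, an atypical MAP kinase, was lower in knockout cells (-0.86, limma adjusted p = 0.0185) and higher after removal (1.01, adjusted p = 0.00427). The noncoding RNA H19 differed widely between knockout libraries, at 7.55 and 56.1 FPKM with LIF and 27.4 and 118 FPKM after removal, and did not pass in knockout cells (1.80, SE 0.76, limma adjusted p = 0.17). Leaving out either wild type library left none of the 10 called in the knockout comparison.

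The RNA exosome and other RNA decay factors, set beside the exonuclease gene Dis3l2, had 20 tested genes. The list also holds exonucleases that degrade RNA in the opposite direction to DIS3L2. In knockout cells the nuclear exosome catalytic subunit Exosc10 was lower (-0.41, limma adjusted p = 0.0427), and after removal the core subunits Exosc5 (-0.76, limma adjusted p = 0.00713) and Exosc4 (-0.47, adjusted p = 0.0334) were lower, with 0 genes higher by limma in either comparison. These 1 and 2 of 20 lie below the 10.5% and 21.4% of all genes called, and the list medians were -0.12 and -0.01. The calls of Exosc10 and Exosc4 were lost when any 1 library was left out. Of 14 factors of the m6A mark, which IGF2BP proteins can read, the writer cofactor Rbm15 was higher (0.64, limma adjusted p = 0.0329) and the methyltransferase Mettl3 lower (-0.55, adjusted p = 0.0451) in knockout cells, and the nuclear reader Ythdc1 was higher after removal (0.38, adjusted p = 0.0498). With 1 library left out, Mettl3 was called in 0 of 6 limma fits, where its adjusted p was between 0.0667 and 0.363, and Rbm15 and Ythdc1 in 1 of 6 each.

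**Figure D5:**
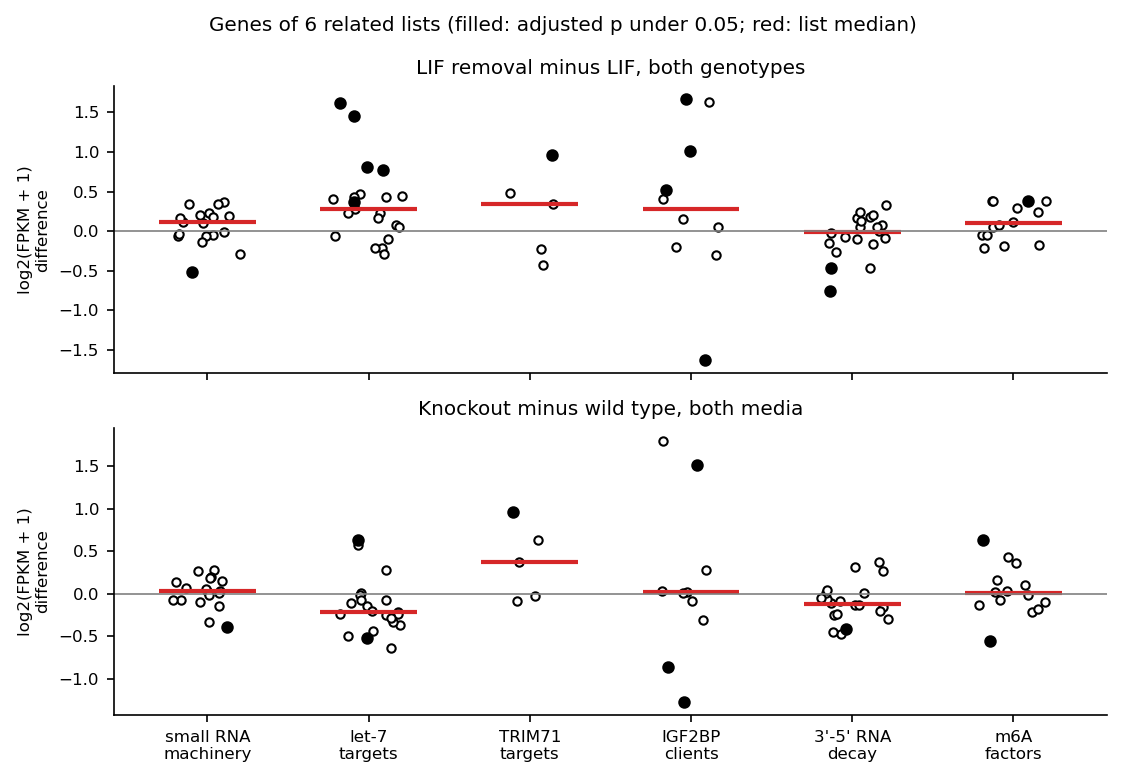
Differences in log2(FPKM + 1) (y axis) of the tested genes of 6 related lists, 1 point per gene, filled where the limma adjusted p was under 0.05, with red lines at the list medians, for LIF removal (upper panel) and knockout (lower panel). The 21 let-7 targets have 5 filled points above 0 in the upper panel, and 1 above and 1 below 0 in the lower panel.

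The genes whose profile over the 6 libraries was most like that of each of the 7 were named by Pearson's r of log2(FPKM + 1) among 11389 candidates, as a description. With 6 points that share medium and genotype, high values are common, and between 17 genes (Trim71) and 234 genes (Igf2bp2) reached 0.95. The nearest to Lin28a were Mlec (0.996), Hes6 (0.993) and Sidt2 (0.989), and the nearest to Lin28b were Klf7 (0.997), Ptger4 (0.995) and Lca5 (0.991). For Igf2bp1 they were Ptrh2 (0.996), Psme2b (0.995) and Tlx3 (0.993), all 3 on chromosome 11 like Igf2bp1 itself. For Igf2bp2 they were Rnf34 (0.999), Hebp1 (0.993) and Polr2i (0.993), each on another chromosome. For Igf2bp3 they included Sh3rf1 (0.984) and Trp53bp2 (0.984). Trim71 was most like Dgcr2 (0.998), Rnps1 (0.994) and Hmgxb3 (0.988), and the genes most like Dis3l2 included Exd2 (0.991) and Hgsnat (0.983).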

How the data were processed

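RNA-seq of 6 libraries (total RNA, 150 bp paired-end reads, per the labels' protocols) was used as 1 table of FPKM that the authors deposited. STAR and Cufflinks are named as tools and mm10 as build, per the submitters' processing notes. Their versions, the gene annotation and use of strand: not given in the sources used here. FPKM summed to between 456155 and 556318 per library. Read counts were not used, so counting error is unknown. Relative depth, read from ratios of low genes, lay between 0.843 and 1.08 of the wild type library with LIF.

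Values were analysed as log2(FPKM + 1), which understates the change of low genes, without further scaling. Genes averaging 1 FPKM or more over the libraries were tested with limma 3.58.1 in R 4.3.3 (intensity trend, two-sided, Benjamini-Hochberg over 11785 genes, 0.05). The additive fit has 3 residual and 5.08 prior degrees of freedom and the 4-group fit 2 and 4.7, all from knockout libraries in the latter. The scripts were tested on simulated data. The 7 genes and the lists were chosen with earlier results of these data known. Named genes were Hnrnpf, the 7 genes, up to 4 genes of each list with the lowest p, markers by level, and the 3 genes most like each of the 7. Some genes that this rule selects are not reported here. Positions and UTRs came from GENCODE vM21, with 1 transcript per gene.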

Additional observations from a re-analysis of the deposited data

How the results depend on the processing

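Counts of called genes depended on the settings more than the estimates did. For knockout over both media, 1232 genes and 2 of the 7 were called: 335 and 1 with no filter on low values (genes at 0 in every library left out), 1 of the 7 with no intensity trend, and 5 to 994 genes and 0 to 2 of the 7 without 1 library. The lost gene was Igf2bp1 (limma adjusted p = 0.0691 and 0.0589). For LIF removal, 2523 genes and 2 of the 7 became 817 to 1924 and 1 to 2 without 1 library, and 4 of the 7 with an equal total, a setting chosen after seeing the data. For knockout with LIF, 5 genes became 0 with no filter or no trend and 4 to 14 without 1 library. After removal, 7 genes became 0 with no filter, 4 with no trend, 13 with a pseudocount of 0.1, 11 with an equal total, 16 with only the groups compared and 5 to 16 without 1 library. For removal in knockout cells, 816 genes and 1 of the 7 became 0 and 0 with no filter, 0 of the 7 with no trend, and 124 to 821 and 0 to 1 without 1 library. The interaction had 0 calls and 0 to 1 without 1 library. In wild type cells, 985 genes passed the fold, and 1550 with a pseudocount of 0.1. The causes were not tested.

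Signs turned for estimates near 0. With an equal total, Trim71 was 0.08 for knockout, 0.09 for removal and 0.03 for removal in knockout cells, and Dis3l2 0.05 for knockout with LIF. Quantile normalization gave Trim71 0.01 for removal. Without 1 library, the knockout estimate over both media ran from -0.08 to 0.26 for Dis3l2 and from -0.09 to 0.03 for Trim71, and with LIF from -0.42 to 0.26 and from -0.02 to 0.08. Removal in knockout cells ran from -0.59 to 0.09 for Dis3l2. The interaction ran from -0.19 to 0.08 for Lin28a, from -0.18 to 0.15 for Igf2bp2, from -0.32 to 0.09 for Igf2bp3 and from -0.01 to 0.68 for Dis3l2.

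The labels do not say what a knockout number marks. Deviations of same-numbered knockout libraries correlated across 11785 genes (r = 0.366). The Hnrnpf level also followed the number, at 28.9% and 28.4% of wild type for number 1 and 10.8% and 8.28% for number 2. Both are hints from the data only. With the number as a replicate block, limma called 2147 genes and 4 of the 7 for knockout over both media, 3516 and 3 for removal, 971 and 2 for knockout with LIF, 783 and 1 after removal and 2621 and 2 for removal in knockout cells. Calls added by limma were Lin28a (-0.39, adjusted p = 0.0216) and Igf2bp3 (-0.40, 0.0316) for knockout over both media, Lin28a for removal (0.28, 0.0369), Igf2bp1 (0.0299) and Igf2bp2 (0.0251) for knockout with LIF, Igf2bp2 after removal (0.0295) and Igf2bp2 for removal in knockout cells (0.00727).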
